A study of Mus musculus with 1183 samples.

Results

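Mac III is the subtype label of 390 of the 1183 single cells examined here, and the cells were chosen by that label alone. The series sorted immune cells from the distal lung of mouse pups exposed to hyperoxia, a raised oxygen level, and read the RNA of each cell from plates. The Mac III cells came from 1 female (182 cells) and 1 male (208 cells) at postnatal day 7. Every cell compared here shares that age and the hyperoxia exposure, and cells from normal oxygen were not analysed here. All Mac III cells were sorted on CD45, the surface protein of leukocytes. They filled plates F1 (99 cells), F2 (83 cells), M1 (106 cells) and M2 (102 cells), of which F1 was sequenced in run DC28 and the others in run DC35. The comparison classes were the macrophage labels Mac II (27 female and 20 male cells, 47 in all), Mac IV (63 and 79, 142 in all) and Mac V (66 and 45, 111 in all) of the same 2 animals. Of the 1183 cells, 10 came from plates of other sorts, named CD31 or mesench, and from other runs. Among them were a male Mac IV cell, a female Mac V cell and cells of other classes. The labels give no strain, litter or oxygen concentration. With 1 animal of each sex, sex and animal cannot be told apart.

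Alveolar macrophages live in the airspaces, where they take up and break down surfactant, inhaled particles and dying cells. They settle in the lung around birth from fetal monocytes under GM-CSF and TGF-beta, whose signals raise the transcription factor PPAR-gamma, and they are known for the lectin Siglec-F, the integrin CD11c (Itgax) and stores of surfactant lipid. Interstitial macrophages stay in the lung tissue and are known for complement C1q and CX3CR1, and monocytes are the circulating cells known for CCR2 or, in the patrolling kind, for Ace and Treml4.

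The Mac III cells held 209314075 reads in the female and 235566546 reads in the male. A single cell held 90265 to 3464195 reads, with a median of 1108525 and plate medians of 829548 on F1, 1289892 on F2, 949871 on M1 and 1294467 on M2. Levels below are CPM, the summed reads of one animal's cells of a class scaled to a common total, printed for the female and then the male, and they are not corrected for gene length, so they are compared within a gene and not between genes. A share of cells is the percentage of 389 Mac III cells with at least 5 reads of a gene after each cell was thinned to 100000 reads (1 shallower cell was left out). The counts are reads without molecular identifiers, so the intervals given for shares (exact Clopper-Pearson, 95%) cover counting error only.

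Of 6 genes named as markers of the subtype, Mac III cells carried most and the other macrophage classes few. The median Mac III cell had 5 of the 6 detected, 95.1% (370 cells) had at least 3 and 18% (70 cells) had all 6. Among 47 Mac II cells 29.8% (14 cells) had at least 3 and none had more than 4. Of 142 Mac IV cells and 110 Mac V cells 0 had at least 3, which allows a share of up to 2.11% and 2.73%. In neutrophils the share with at least 3 was 4.51%, and no B cell had more than 1. Across the 15 classes with at least 5 cells in each animal, 3 of the 6 genes (Ear1, Car4 and Ccl6) were highest in Mac III.

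Ear1, an eosinophil-associated ribonuclease, was detected in 60.9% of Mac III cells (55.9% to 65.8%), 8.51% of Mac II cells and 0% of B cells. Car4, a membrane-bound carbonic anhydrase, was detected in 80.2% (75.9% to 84.1%), against 10.6% in Mac II and 0% in B cells. A count of 0 of 64 B cells allows a share of up to 4.69%. Ccl6, a CC chemokine, was detected in 99.7% of Mac III cells and also in 97.9% of Mac II cells, so its presence does not separate the 2, and in 9.38% of B cells. Ly75, the endocytic receptor DEC-205, was detected in 92% of Mac III cells, 23.4% of Mac II cells and 1.56% of B cells. Its summed level of 473 and 468 CPM was below the 750 and 542 CPM of the class labelled DC III. Net1, a guanine nucleotide exchange factor of small GTPases, was detected in 76.1% of Mac III cells, 63.8% of Mac II cells and 10.9% of B cells, and was also higher in DC III (863 and 453 CPM) than in Mac III (176 and 169.8 CPM). Its Mac II level of 116 and 243 CPM lay on both sides of the Mac III values, so the level does not separate these classes. Wfdc21, a small secreted whey-acidic-protein domain protein, was detected in 38.0% of Mac III cells (33.2% to 43.1%), 4.26% of Mac II cells and 3.12% of B cells. It reached 87.1 and 116 CPM in Mac III against 1371 and 1414 CPM in neutrophils.

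**Figure D1:**
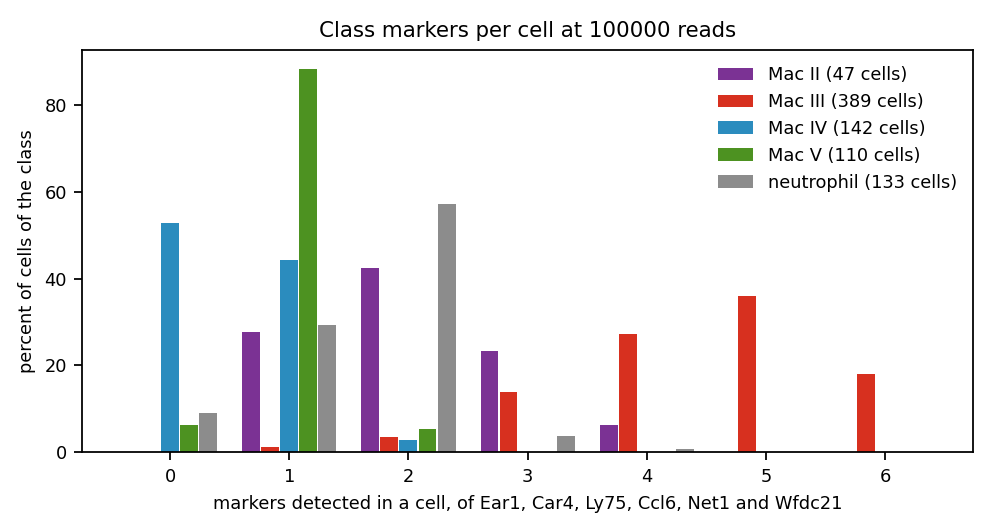
Share of cells (y axis, percent) by the number of the 6 marker genes detected (x axis, 0 to 6) in Mac III, Mac II, Mac IV, Mac V and neutrophils, each cell thinned to 100000 reads. Mac III cells are centred on 5 markers, Mac II cells reach at most 4, and the Mac IV and Mac V cells stay under 3.

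Ear1 belongs to a family of near-identical genes on mouse chromosome 14, so the stretches before its start and those of the relatives Ear2 and Ear6 are shown to let a reader see how alike they are. They are the 250 bases before the RefSeq start of each gene (build GRCm38.p6), 5′ to 3′ on the gene's own strand. Ear1 lies at chr14:43819640-43819889 on the minus strand, Ear2 at chr14:44102404-44102653 on the plus strand and Ear6 at chr14:51853518-51853767 on the plus strand. Capitals mark a match to TTGCNNAA, a C/EBP-type motif (N is any base), in Ear1 and Ear2, and in Ear6 a match to AGGTCA, a nuclear receptor motif read on the reverse strand.
Ear1: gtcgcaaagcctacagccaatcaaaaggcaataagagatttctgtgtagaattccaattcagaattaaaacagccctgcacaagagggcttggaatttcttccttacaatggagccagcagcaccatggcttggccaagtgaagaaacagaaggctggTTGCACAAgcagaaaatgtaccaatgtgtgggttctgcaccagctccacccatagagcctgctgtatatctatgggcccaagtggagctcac
Ear2: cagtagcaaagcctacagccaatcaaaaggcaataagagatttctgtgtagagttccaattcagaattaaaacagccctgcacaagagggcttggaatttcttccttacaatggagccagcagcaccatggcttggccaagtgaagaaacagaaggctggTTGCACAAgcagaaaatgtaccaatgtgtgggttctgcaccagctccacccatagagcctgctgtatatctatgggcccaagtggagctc
Ear6: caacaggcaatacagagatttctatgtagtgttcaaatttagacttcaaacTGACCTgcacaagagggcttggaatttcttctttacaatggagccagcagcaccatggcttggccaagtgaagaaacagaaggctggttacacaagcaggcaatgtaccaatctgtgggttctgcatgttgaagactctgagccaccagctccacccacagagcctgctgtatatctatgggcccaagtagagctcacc
Ear1 and Ear2 carried the same base at 246 of 248 positions when shifted by 2, and Ear1 and Ear6 at 166 of 230 when shifted by 20, the best of the ungapped shifts of up to 50 bases. Both strands were searched, for these and for other motifs named below, and TTGCNNAA was found in 9.55% and AGGTCA in 13.8% of 27025 promoters of the same length. A match is a description of letters and not a site of binding.

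Ear2, whose stretch is nearly the same as that of Ear1, was spread more widely over the classes. It stood at 1097 and 1028 CPM in Mac III, 2526 and 2815 CPM in Mac II, 30.2 and 22.6 CPM in Mac IV and 869 and 722 CPM in Mac V. Ear1 stood at 252 and 268 CPM in Mac III, 34.7 and 66.2 CPM in Mac II, 0.0419 and 0.0764 CPM in Mac IV and 0.872 and 1.28 CPM in Mac V. The number of Ear2 reads per Ear1 read was 4.35 in the female and 3.83 in the male Mac III cells, against 72.9 and 42.5 in Mac II, 720 and 296 in Mac IV and 996 and 564 in Mac V. Ear6 was at 36.6 and 74.5 CPM in Mac III and detected in 22.6% of its cells, and Ear10 was at 1.55 and 2.26 CPM. How reads of such near-identical genes were divided in the counting is not given in the sources used here, so each level in the family is uncertain.

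**Figure D2:**
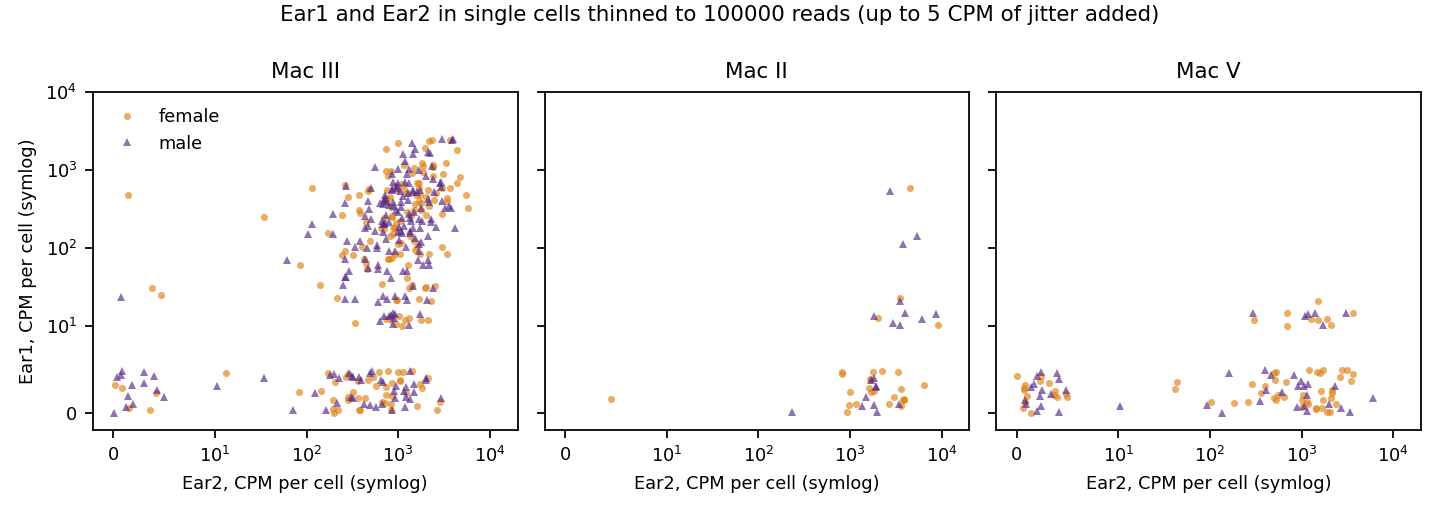
Ear1 (y axis) against Ear2 (x axis) in single cells of Mac III, Mac II and Mac V, both in CPM on an axis that is linear near 0 and logarithmic above. Many Mac III cells carry both genes, while Mac II and Mac V cells spread along Ear2 with little Ear1.

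Against all other classes, not only macrophages, 176 of the 3103 genes at 50 CPM or more in both Mac III libraries (5.67%) were above each of the other 28 libraries in both animals, and 27 (0.870%) were at least 2-fold above. These are descriptions with no test. Slc39a2, a zinc importer of the ZIP family, had the widest margin, with 254 and 273 CPM in Mac III against at most 2.95 CPM elsewhere. Krt19, a keratin better known from epithelium, followed with 339 and 335 CPM against at most 12.9 CPM. Other genes with a margin of at least 2-fold were Atp6v0d2, a vacuolar proton pump subunit, Car4, Mcoln3, an endolysosomal cation channel, Pex11a, a peroxisome division factor, Gpnmb, a lysosome-associated glycoprotein, Acaa1b, a peroxisomal thiolase, Ctsk, the collagen-degrading cathepsin K, Slc7a2, a cationic amino acid transporter (639 and 667 CPM), Gdf15, a stress-induced TGF-beta family cytokine, and Vwf, the von Willebrand factor better known from endothelium (139 and 116 CPM). Of the 25 genes with the widest margins 20 matched a RefSeq promoter. Of those, 4 (Ctsk, Ear1, Gmpr and Maff) held TTGCNNAA (9.55% of all promoters) and 2 (Gdf15 and Gmpr) held AGGTCA (13.8%). Other motifs searched were TGACNNNGC, an antioxidant response core, in 3 (10.1% of all promoters), and the E-box CACGTG in 2 (6.05%). The PU.1-type GAGGAAGT was in 1 (2.44%) and the AP-1-type TGANTCA in 0 (6.87%).

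**Figure D3:**
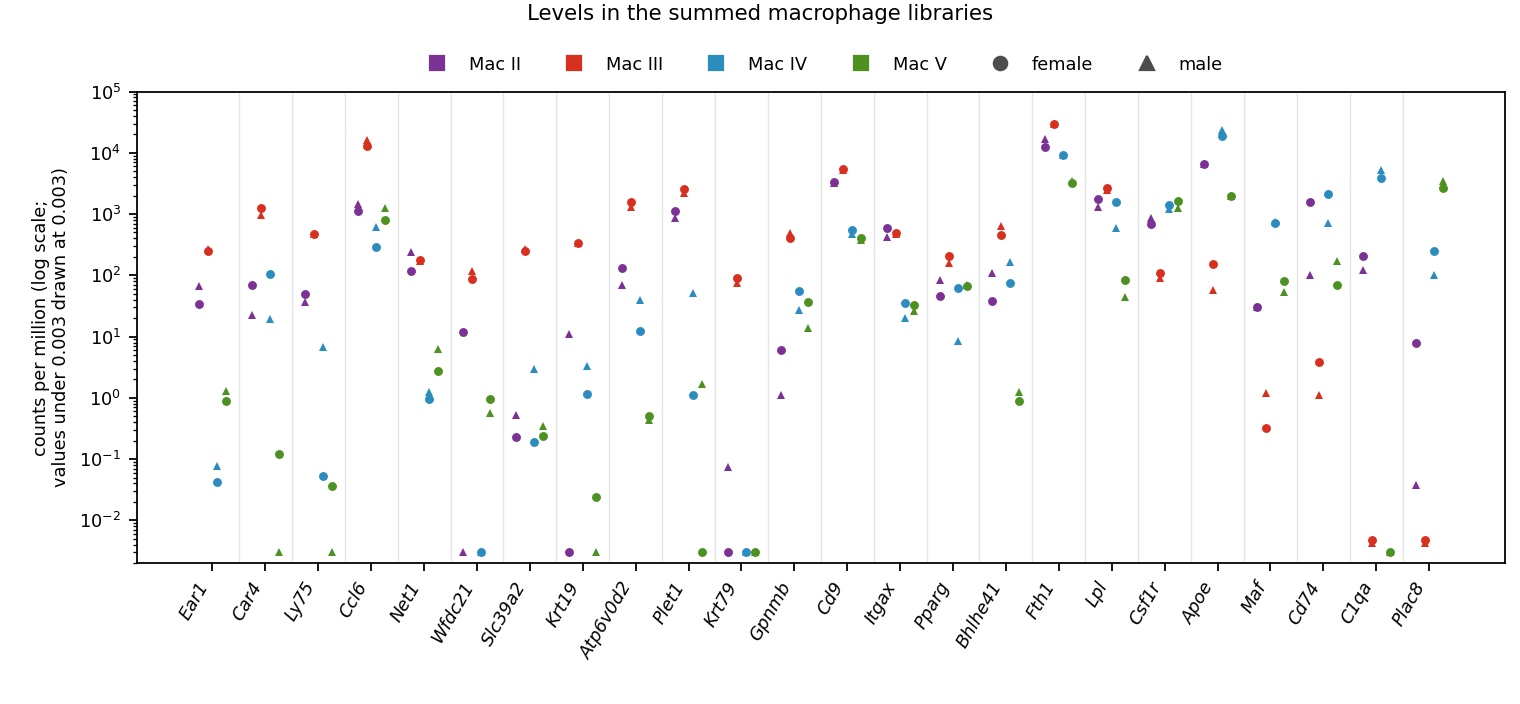
Summed level (y axis, CPM, logarithmic, values under 0.003 drawn at 0.003) of 24 genes in Mac II, Mac III, Mac IV and Mac V, with circles for the female and triangles for the male. Mac III is highest for genes such as Car4, Atp6v0d2 and Ear1 and lowest for Apoe, Maf and Csf1r.

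The summed libraries were then compared with edgeR's quasi-likelihood test over all 14400 genes that passed a filter on low counts, with Benjamini-Hochberg adjustment and a threshold of 0.05, in 1 fit of the 8 libraries. Each group is 2 animals, and the spread is estimated from 4 residual degrees of freedom. The class labels probably rest on the same expression values, so a call describes a difference between labels and lends no separate support to them, and all 3 comparisons share the Mac III libraries. Against Mac IV 353 genes were higher (2.45% of those tested) and 401 lower (2.78%) in Mac III. Against Mac V 524 were higher (3.64%) and 562 lower (3.90%), and against Mac II 47 were higher (0.326%) and 116 lower (0.806%). Against the mean of the 3 classes 555 were higher (3.85%) and 353 lower (2.45%). The median log2 fold change of all genes tested was -0.05 against Mac IV, 0.11 against Mac V and 0.08 against Mac II. A gene is called held below when it passed with each of the 4 compared libraries left out in turn. Where a call did not hold, the libraries whose omission ended it and the highest adjusted p over those 4 fits are given. A log2 fold change is Mac III over the named class, and errors after ± are its standard errors. In a fit over all 15 classes, whose spread is wider, few calls remained: 11 of the 91 genes named against Mac IV, 18 of 104 against Mac V and 2 of 40 against Mac II.

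Of 21 genes known from alveolar macrophages, 11 were higher, 0 lower and 10 not called against Mac IV (median log2 fold change 4.82), where 2.45% of all genes were higher. Against Mac V 14 were higher and 0 lower (5.96, with 3.64% of all genes higher), and against Mac II 2 were higher, 1 lower and 18 not called (1.36, with 0.326% of all genes higher and 0.806% lower). The list includes Ear1, Car4 and Ly75, which are also named markers of the subtype, and was chosen with earlier results of these data known. These counts therefore describe the class and lend no separate support to its name. Siglecf, the lectin receptor, was at 111 and 67.0 CPM in Mac III, 146 and 86.0 CPM in Mac II and 0.377 and 0.687 CPM in Mac IV (log2 fold change 7.35 ± 0.75, adjusted p = 0.00166, held). Itgax, the CD11c integrin chain, was at 488 and 477 CPM in Mac III and 592 and 416 CPM in Mac II, against 35.2 and 19.9 CPM in Mac IV (log2 fold change 4.13 ± 0.37, adjusted p = 0.001081, held). The Mac V level was 32.7 and 26.4 CPM (log2 fold change 3.96 ± 0.37, adjusted p = 0.0007671, held). The Mac II values overlap those of Mac III for both, and the Mac IV and Mac V values lie far below. Ear1, whose levels are given above, was higher than in Mac IV (log2 fold change 12.04 ± 0.69, adjusted p = 0.0002041, held) and in Mac V (log2 fold change 7.85 ± 0.58, adjusted p = 0.0002849, held). Car4 was at 1236 and 982 CPM, with 68.5 and 22.7 CPM in Mac II, and was higher than in Mac V (log2 fold change 13.83 ± 1.47, adjusted p = 0.001233, held) and in Mac IV (log2 fold change 4.16 ± 0.96, adjusted p = 0.04639), which missed the threshold without the Mac III female, the Mac III male, or the Mac IV male, adjusted p up to 0.1723, and also with RLE size factors and in cells of run DC35 only.

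Among the other alveolar genes, Atp6v0d2 was higher than in all 3 classes, at 1554 and 1321 CPM against 131 and 69.2 CPM in Mac II (log2 fold change 3.83 ± 0.60, adjusted p = 0.02673, missed the threshold without any 1 of the 4 libraries, adjusted p up to 0.1381). Mac IV cells had 12.2 and 40.2 CPM (log2 fold change 5.75 ± 0.65, adjusted p = 0.002541, held). Mac V reached 0.502 and 0.434 CPM (log2 fold change 11.50 ± 0.83, adjusted p = 0.0002687, held). Cd9, a tetraspanin, was at 5424 and 5203 CPM, with 3363 and 3155 CPM in Mac II and 541 and 467 CPM in Mac IV (log2 fold change 3.39 ± 0.21, adjusted p = 0.0002854, held). In Mac V it stood at 405 and 380.2 CPM (log2 fold change 3.69 ± 0.22, adjusted p = 0.0001964, held). Plet1, a surface protein of the alveolar lineage, was at 2585 and 2218 CPM against 0 and 1.69 CPM in Mac V (log2 fold change 11.46 ± 2.51, adjusted p = 0.0313), a call that missed the threshold without the Mac III female, the Mac III male, or the Mac V female, adjusted p up to 0.0657, and also without cycling cells. Fabp1, a lipid chaperone often named with these cells, was at only 5.02 and 4.99 CPM in Mac III and at 0 in the other 3 classes. The genes Marco and Pparg, both on the list, did not pass the test against any of the 3. Marco, a scavenger receptor, was at 988 and 1129 CPM, 133 and 7.73 CPM in Mac II, 908 and 336 CPM in Mac IV and 32.2 and 0 CPM in Mac V. The Mac IV reads came from few cells, since 5.63% of them had the gene detected.

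Among 22 transcription factors of macrophages the calls went both ways. Against Mac IV, 3 were higher (Cebpa, Cebpb and Klf4) and 4 lower (Maf, Irf8 and Runx3 among them), with a median of 0.26. Against Mac V, 4 were higher (Cebpa, Bhlhe41, Rxra and Tfec) and 5 lower (Maf, Zeb2, Irf8, Nr4a1 and Runx3), with a median of -0.41, and against Mac II only Maf was called, lower, with a median of -0.37. For all genes tested, the shares higher and lower were 2.45% and 2.78%, 3.64% and 3.90%, and 0.326% and 0.806%, in that order. Maf, which in other macrophages restrains self-renewal, was nearly absent at 0.325 and 1.21 CPM, against 30.6 and 30.7 CPM in Mac II (log2 fold change -5.32 ± 0.64, adjusted p = 0.009474, held). The Mac IV level was 719.7 and 729 CPM (log2 fold change -9.88 ± 0.77, adjusted p = 0.0006499, held). Mac V cells had 79.4 and 53.3 CPM (log2 fold change -6.49 ± 0.67, adjusted p = 0.001144, held). Bhlhe41, a repressor that supports alveolar macrophage proliferation, was at 453 and 628 CPM against 0.872 and 1.24 CPM in Mac V (log2 fold change 8.94 ± 0.79, adjusted p = 0.0005953, held). Cebpb, a myeloid activator, was at 716 and 924 CPM against 108 and 187 CPM in Mac IV (log2 fold change 2.46 ± 0.38, adjusted p = 0.008881, held). Pparg was at 209.5 and 160.3 CPM in Mac III, 45.5 and 82.9 CPM in Mac II, 63.1 and 8.53 CPM in Mac IV and 67.9 and 69.5 CPM in Mac V, above each library of the others without passing the test.

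Of 15 receptors and response genes of GM-CSF and TGF-beta, 2 were higher and 1 lower than in Mac IV (median 0.43), 1 higher and 4 lower than in Mac V (-0.59), and 0 higher and 2 lower than in Mac II (-0.94). Shares of all genes higher and lower were 2.45% and 2.78%, 3.64% and 3.90%, and 0.326% and 0.806%, in the same order. Csf1r, the receptor of M-CSF, was lower than in each class, at 110.2 and 90.9 CPM against 697 and 863 CPM in Mac II (log2 fold change -2.98 ± 0.27, adjusted p = 0.004179, held). Mac IV reached 1391 and 1214 CPM (log2 fold change -3.71 ± 0.28, adjusted p = 0.0005467, held). In Mac V it stood at 1643 and 1265 CPM (log2 fold change -3.93 ± 0.28, adjusted p = 0.0002654, held). Csf2ra and Csf2rb, the GM-CSF receptor chains, were at 541 and 667 and 701 and 557 CPM and higher than in Mac IV at log2 fold changes of 1.38 and 1.69. The Csf2ra call missed the threshold without any 1 of the 4 libraries, adjusted p up to 0.2355, and also with RLE size factors. The Csf2rb call missed the threshold without any 1 of the 4 libraries, adjusted p up to 0.1292. Tgfbr2, the type 2 TGF-beta receptor, was at 257 and 235 CPM against 69.6 and 40.3 CPM in Mac V (log2 fold change 2.09 ± 0.40, adjusted p = 0.01839), a call that missed the threshold without the Mac III female, the Mac III male, or the Mac V male, adjusted p up to 0.09871, and also in cells of run DC35 only.

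Secreted products had the most calls against Mac II. Of 31 tested, 10 were higher and 0 lower than in Mac IV (median 1.43), 9 higher and 4 lower than in Mac V (1.95), and 7 higher and 3 lower than in Mac II (0.77). Among all genes the shares higher and lower were 2.45% and 2.78%, 3.64% and 3.90%, and 0.326% and 0.806%, in the same order. The list includes the named subtype markers Ear1, Ccl6 and Wfdc21. Ccl6 was at 13072 and 16291 CPM against 1128 and 1447 CPM in Mac II (log2 fold change 3.49 ± 0.44, adjusted p = 0.01102, missed the threshold without the Mac II female or the Mac II male, adjusted p up to 0.08255). The Mac IV level was 289 and 623 CPM (log2 fold change 4.98 ± 0.47, adjusted p = 0.00123, held). Mac V cells had 800.3 and 1251 CPM (log2 fold change 3.77 ± 0.44, adjusted p = 0.001977, held). Ccl9, a second chemokine of that kind, was at 1746 and 1406 CPM and was called higher than in all 3, though none of these calls held (adjusted p up to 0.2801 against Mac IV, 0.08204 against Mac V and 0.3262 against Mac II). Spp1, osteopontin, was at 513 and 674 CPM against 1.15 and 1.5 CPM in Mac V (log2 fold change 8.75 ± 0.63, adjusted p = 0.0002654, held). Il18, an interleukin made as an inactive precursor, was at 395 and 300.0 CPM against 38.7 and 68.4 CPM in Mac V (log2 fold change 2.63 ± 0.40, adjusted p = 0.006239, held). Mac II cells had more Il18 than Mac III, at 411 and 501 CPM, and it was not called. Gpnmb was at 413 and 497 CPM against 5.94 and 1.13 CPM in Mac II (log2 fold change 6.99 ± 0.93, adjusted p = 0.01418), a call that missed the threshold without the Mac III male, adjusted p up to 0.05336, and also in cells of run DC35 only. Tnf, the inflammatory cytokine, was at 74.9 and 73.4 CPM against 1.60 and 3.77 CPM in Mac II (log2 fold change 4.77 ± 0.79, adjusted p = 0.03409), a call that missed the threshold without any 1 of the 4 libraries, adjusted p up to 0.1458, and also with the animal as a block (adjusted p = 0.05658) and in cells of run DC35 only. Lyz2, lysozyme, was abundant yet lower, at 13898 and 14630.5 CPM against 39633 and 44283 CPM in Mac II (log2 fold change -1.58 ± 0.18, adjusted p = 0.00814, missed the threshold without the Mac III female or the Mac III male, adjusted p up to 0.05294). Mac V reached 37708 and 39683 CPM (log2 fold change -1.51 ± 0.18, adjusted p = 0.002014, held).

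Of 30 genes of surfactant and lipid handling tested, 6 were higher and 2 lower than in Mac IV (median 1.42), 10 higher and 1 lower than in Mac V (1.86), and 1 higher and 1 lower than in Mac II (0.71). For all genes tested, the shares higher and lower were 2.45% and 2.78%, 3.64% and 3.90%, and 0.326% and 0.806%, in that order. Lpl, lipoprotein lipase, was at 2685 and 2425 CPM against 84.3 and 43.5 CPM in Mac V (log2 fold change 5.25 ± 0.55, adjusted p = 0.001188, held), with 1766 and 1296 CPM in Mac II and 1547 and 583 CPM in Mac IV. Abcg1, a cholesterol exporter, was at 1806 and 2493 CPM against 478 and 519 CPM in Mac IV (log2 fold change 2.10 ± 0.29, adjusted p = 0.005765, held). In Mac V it stood at 198 and 281 CPM (log2 fold change 3.10 ± 0.30, adjusted p = 0.0008946, held). Lipa, the lysosomal acid lipase, was at 1047 and 1062 CPM against 185 and 124 CPM in Mac V (log2 fold change 2.70 ± 0.35, adjusted p = 0.003323, held). Cidec, a protein that fuses lipid droplets, was at 79.0 and 31.7 CPM and had 0 reads in Mac V, so it was at least 2334-fold higher (held). Plin2, a lipid droplet coat protein, was at 1773 and 1985 CPM against 983 and 789 CPM in Mac IV and 732 and 772 CPM in Mac V, called in both. The first call missed the threshold without any 1 of the 4 libraries, adjusted p up to 0.2346, and also with RLE size factors, and the second missed the threshold without any 1 of the 4 libraries, adjusted p up to 0.1202. Apoe, the apolipoprotein, went the other way in all 3 comparisons, at 153 and 57.4 CPM against 6529.8 and 6543 CPM in Mac II (log2 fold change -5.99 ± 0.49, adjusted p = 0.004179, held). The Mac IV level was 18514 and 23784 CPM (log2 fold change -7.68 ± 0.52, adjusted p = 0.0003516, held). Mac V cells had 1980.2 and 2004 CPM (log2 fold change -4.32 ± 0.45, adjusted p = 0.001144, held). It was detected in 18.5% of Mac III cells.

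Among 27 scavenger and uptake receptors, 6 were higher and 9 lower than in Mac IV (median -0.18), 5 higher and 5 lower than in Mac V (0.31), and 0 higher and 2 lower than in Mac II (-0.39, or -0.43 with genes at 0 reads set to their bound). Shares of all genes higher and lower were 2.45% and 2.78%, 3.64% and 3.90%, and 0.326% and 0.806%, in the same order. Olr1, a receptor of oxidised lipoproteins, was at 371 and 458 CPM against 15.7 and 7.70 CPM in Mac IV (log2 fold change 5.14 ± 0.49, adjusted p = 0.001358, held). Mac V reached 8.99 and 7.73 CPM (log2 fold change 5.56 ± 0.50, adjusted p = 0.0006606, held). Axl, a receptor tyrosine kinase that binds dying cells, was at 588 and 441 CPM against 104 and 106 CPM in Mac IV (log2 fold change 2.28 ± 0.32, adjusted p = 0.005969, held). In Mac V it stood at 48.8 and 82.0 CPM (log2 fold change 2.90 ± 0.32, adjusted p = 0.001508, held). In Mac II Axl was above its Mac III level, at 1087 and 1189 CPM, and was not called. Mrc1, the mannose receptor, separated Mac III from Mac V (916 and 969 CPM against 0.574 and 3.50 CPM, log2 fold change 8.81 ± 0.88, adjusted p = 0.001066, held) and was not called against Mac IV, where it was at 1361 and 1628 CPM. Stab1 and Timd4, receptors that clear modified proteins and dying cells, were among those lower than in Mac IV, and both calls held. The call of Cd163, the haemoglobin scavenger receptor, missed the threshold without any 1 of the 4 libraries, adjusted p up to 0.2153, and also with the animal as a block (adjusted p = 0.06097). The Fc receptors Fcgr1 (22 and 24.5 CPM) and Fcgr2b (39.7 and 16.8 CPM) were lower than in each of the 3 classes, and of these 6 calls only Fcgr1 against Mac II did not hold (it missed the threshold without the Mac III female or the Mac III male, adjusted p up to 0.06545).

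Of 23 lysosomal genes, 3 were higher and 4 lower than in Mac IV (median -0.24), 6 higher and 2 lower than in Mac V (0.59), and 1 higher and 2 lower than in Mac II (0.42). Among all genes the shares higher and lower were 2.45% and 2.78%, 3.64% and 3.90%, and 0.326% and 0.806%, in the same order. Ctsd, an aspartic cathepsin, was at 5279 and 5891 CPM against 1369.8 and 1394 CPM in Mac IV (log2 fold change 2.00 ± 0.24, adjusted p = 0.002959, held). The Mac V level was 240.2 and 305 CPM (log2 fold change 4.29 ± 0.26, adjusted p = 0.000197, held), with 2459.9 and 2992 CPM in Mac II. Ctsl, a cysteine cathepsin, was at 511 and 409.6 CPM against 108 and 62.2 CPM in Mac V (log2 fold change 2.36 ± 0.34, adjusted p = 0.0054, held). Cst3, the cathepsin inhibitor cystatin C, was lower than in each, at 713 and 811 CPM against 2037 and 2237 CPM in Mac II, 3842 and 5009 CPM in Mac IV and 3719.8 and 5014 CPM in Mac V. The call against Mac II missed the threshold without any 1 of the 4 libraries, adjusted p up to 0.2775, and also in thinned cells and without cycling cells, and the other 2 held.

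Of 31 genes of oxidant and metal handling, 4 were higher and 3 lower than in Mac IV (median 0.55), 9 higher and 5 lower than in Mac V (1.23), and 1 higher and 0 lower than in Mac II (0.26). For all genes tested, the shares higher and lower were 2.45% and 2.78%, 3.64% and 3.90%, and 0.326% and 0.806%, in that order. Fth1, the ferritin heavy chain that stores iron, was at 30021 and 29010.0 CPM against 12494 and 16797 CPM in Mac II and 9298 and 9159.7 CPM in Mac IV (log2 fold change 1.66 ± 0.21, adjusted p = 0.00415, held). Mac V cells had 3189 and 3437 CPM (log2 fold change 3.08 ± 0.22, adjusted p = 0.0002654, held). Mt1, a metallothionein that binds zinc and copper, was at 1862 and 2106 CPM against 19.5 and 41.4 CPM in Mac V (log2 fold change 5.96 ± 0.54, adjusted p = 0.0006484, held). Gclm, a subunit of the glutathione synthesis enzyme, was at 205 and 130.5 CPM against 16.9 and 13.1 CPM in Mac V (log2 fold change 3.41 ± 0.42, adjusted p = 0.002442, held). Prdx1, a peroxidase of the thioredoxin system, was at 3263 and 2599 CPM against 525 and 709 CPM in Mac V (log2 fold change 2.18 ± 0.30, adjusted p = 0.004324, held). Hmox1, which breaks down heme, was the 1 gene called against Mac II, at 2973 and 931 CPM against 258 and 167 CPM, a call that missed the threshold without the Mac II female, the Mac II male, or the Mac III female, adjusted p up to 0.2129, and also with RLE size factors, with voom, in cells of run DC35 only, with CT010467.1 left out of the totals and without the 12 Mac III cells that held markers of another lineage. It stood at 3744 and 1840.1 CPM in Mac IV. Slc11a1, an endosomal metal transporter, was lower at 32.6 and 27.1 CPM against 661 and 315 CPM in Mac IV and 438 and 369 CPM in Mac V. Slc40a1, the iron exporter ferroportin, was at 36.8 and 17.8 CPM, below the 757 and 449.8 CPM of Mac IV (log2 fold change -4.48 ± 0.54, adjusted p = 0.003349, held) and above the 0.203 and 0.0652 CPM of Mac V (log2 fold change 7.48 ± 0.65, adjusted p = 0.000561, held).

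Of 10 genes of MHC class II presentation, with the costimulatory Cd40, Cd80 and Cd86 among them, 0 were higher and 3 lower than in Mac IV (median -7.64). The counts were 0 and 2 against Mac V (-2.72), and 0 and 3 against Mac II (-7.05). Of all genes tested, 2.45% were higher and 2.78% lower than in Mac IV. These shares were 3.64% and 3.90% against Mac V and 0.326% and 0.806% against Mac II. H2-DMa, which helps load peptides, stood at 228 and 189.5 CPM in Mac III, and was called lower against Mac II only (1257 and 936 CPM). Some other genes of the list differed widely between the Mac II animals, such as H2-Aa (886 and 77.6 CPM) and Cd74 (1562 and 102 CPM). Cd74, the invariant chain, was at 3.82 and 1.13 CPM, and Cd86, a costimulatory ligand, was at 8.67 and 9.54 CPM against 108 and 93.3 CPM in Mac II (log2 fold change -3.48 ± 0.31, adjusted p = 0.004179, held). Mac IV reached 365 and 275 CPM (log2 fold change -5.14 ± 0.34, adjusted p = 0.0003204, held). In Mac V it stood at 121 and 158 CPM (log2 fold change -4.00 ± 0.32, adjusted p = 0.0004416, held). Of 18 interstitial macrophage genes 16 were lower and 0 higher than in Mac IV (median -10.58). Against Mac V, 3 were lower and 0 higher (-0.87, or -1.32 with bounds), and against Mac II 4 were lower and 1, Ccl2, higher (-1.03, or -1.96 with bounds). C1qa, a complement C1q chain, had 2 reads in Mac III against 3916 and 5218 CPM in Mac IV, and Pf4, a platelet-type chemokine, had 0 and 0.671 CPM against 4729 and 8575 CPM. C1qb, a further C1q chain, had 1152 reads in Mac III (4.94 and 0.497 CPM). It was below the 865 and 752 CPM of Mac II, but was not called against any of the 3 classes. Of 16 monocyte genes 13 were lower and 0 higher than in Mac V (median -7.20), 7 lower and 1 higher than in Mac IV (-2.23) and 1 lower and 0 higher than in Mac II (-0.83). Ccr2, the chemokine receptor of classical monocytes, was at 1.12 and 3.23 CPM against 631 and 399 CPM in Mac II, 149 and 80.7 CPM in Mac IV and 572 and 893 CPM in Mac V, and was lower in all 3 calls. Itgal, an integrin chain of leukocytes, was the 1 monocyte gene higher than in Mac IV, at 282 and 237 CPM against 65 and 24.5 CPM.

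**Figure D4:**
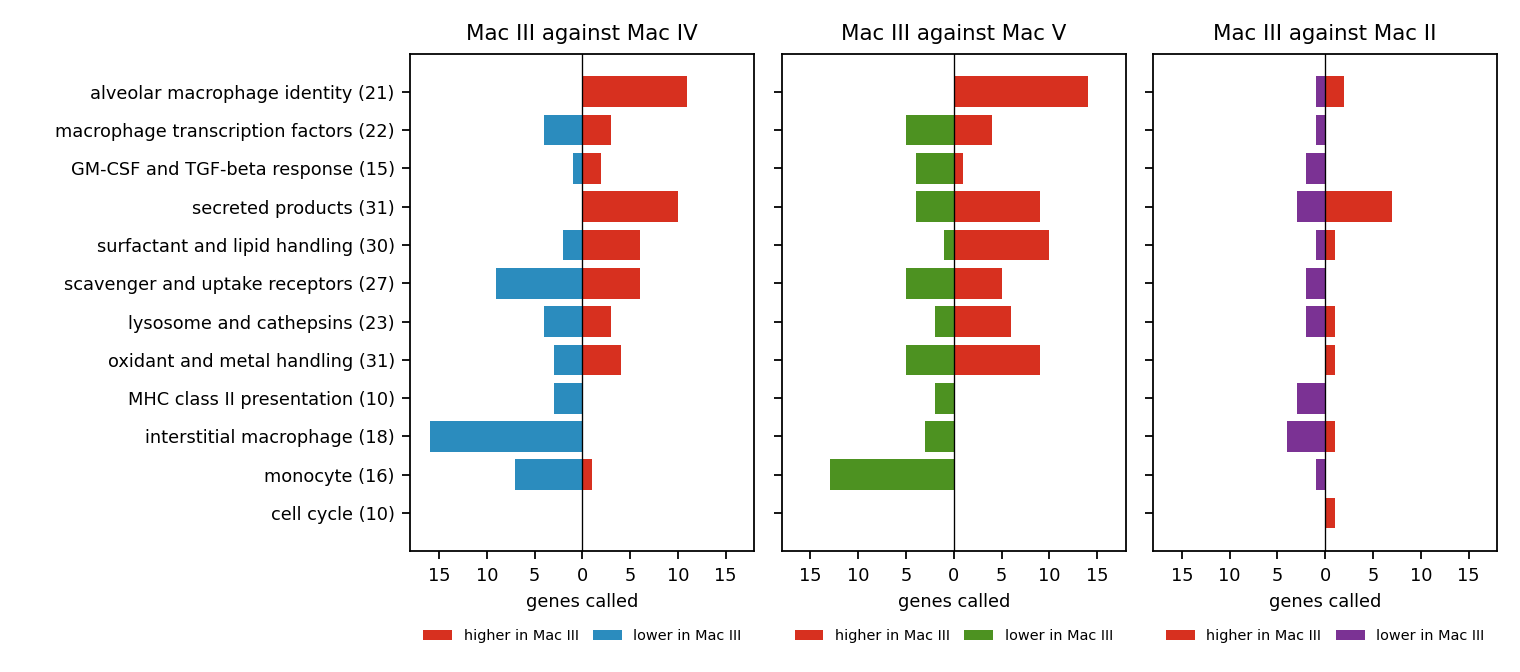
Number of genes called higher (right) or lower (left) in Mac III per gene list (y axis), in separate panels against Mac IV, Mac V and Mac II, with the number of genes tested in brackets. The alveolar list extends to the right against Mac IV and Mac V, the interstitial list to the left against Mac IV and the monocyte list to the left against Mac V.

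Many genes with the widest gaps were at or near 0 reads on one side. Counting intervals given for them take the reads of both animals as independent events and leave out the spread between animals. C1qa had 2 reads in Mac III, a ratio of 1031130 (counting interval 285447 to 8514390) below Mac IV and of 38558 (10674 to 318390) below Mac II, and both calls held. Plac8, a monocyte and granulocyte gene, also had 2 reads in Mac III, a ratio of 662898 (183509 to 5473770) below Mac V (held). Against Mac IV, Ccl7 had 1 read in Mac III and C1qc 8 reads. On the higher side against Mac IV, Wfdc21 was at least 7285-fold higher, Krt79 at least 5796-fold and Ear6 at least 4029-fold, each with 0 reads in Mac IV (the bound takes 3 reads over both libraries). The Wfdc21 call missed the threshold without any 1 of the 4 libraries, adjusted p up to 0.1787, and also with the animal as a block (adjusted p = 0.05632) and in cells of run DC35 only. The Krt79 call missed the threshold without the Mac III female or the Mac III male, adjusted p up to 0.06063. The Ear6 call missed the threshold without the Mac III male, adjusted p up to 0.06111. F7, coagulation factor VII, was at 341 and 349 CPM against 0.0314 and 1.24 CPM, a ratio of 494 (held). Further down the lower side, Cyp4b1 was at least 16028-fold lower, Folr2 at least 13261-fold and Ccl8 at least 11960-fold, with 0 reads in Mac III. Cyp4b1, a cytochrome P450, missed the threshold without any 1 of the 4 libraries, adjusted p up to 0.1995. Folr2, a folate receptor, missed the threshold without the Mac IV female, adjusted p up to 0.05955, and Ccl8, a chemokine, missed the threshold without the Mac IV male, adjusted p up to 0.07576. Against Mac V, Mt2 was at least 7681-fold higher and Gdf15 at least 6178-fold, both held, while Ifitm3, an interferon-induced membrane protein, was 9072-fold lower and Ly6c2, a surface marker of classical monocytes, 8690-fold lower, and both of these calls held. Against Mac II, Apoe was 64.0-fold lower, Ccr2 243-fold (both held) and Cx3cr1, the fractalkine receptor, 364-fold, a call that missed the threshold without the Mac II female or the Mac II male, adjusted p up to 0.1115, and also with the animal as a block (adjusted p = 0.08323), without cycling cells and with CT010467.1 left out of the totals.

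Compared with each of the other 3 classes, 16 of the 14400 genes tested were higher and 85 lower in Mac III. All lists together name 290 distinct genes, and 6 of the 16 and 11 of the 85 are among them. The list genes among the higher ones were Atp6v0d2, Ccl6, Ccl9, Ear6, Gpnmb and Krt79. Those among the lower ones were Apoe, Ccr2, Cd74, Cd86, Csf1r, Cst3, Ctsh, Cx3cr1, Fcgr1, Fcgr2b and Maf. With the animal as a block, Krt79 (adjusted p = 0.07229) and Cx3cr1 (adjusted p = 0.08323) were not called against Mac II and so leave these lists. Since the 3 comparisons share the Mac III libraries, these counts are not independent.

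Few genes separated the animals. Of 6672 genes at 20 CPM or more, 0.0300% had both plates of 1 animal at least 3-fold above both plates of the other, in each direction. Those were the X inactivation RNA Xist (349.9 CPM against 0.0637 CPM in the male) and Brms1l (24.8 and 5.43 CPM), higher in the female, and the Y-linked Ddx3y and Eif2s3y, higher in the male. Between single plates more genes passed 3-fold, a looser rule. F1 was higher than F2, the other plate of the female, for 101 genes and lower for 74, while M1 was higher than M2 for 25 genes and lower for 21. Plate F1 is the only plate of run DC28. Hmox1, heme oxygenase 1, was higher on both female plates, at 2969 CPM on F1 and 2976 CPM on F2 against 1057 CPM on M1 and 827 CPM on M2, while Mt1 differed between the plates of each animal, at 1122, 2513, 2665 and 1649 CPM on F1, F2, M1 and M2. Mt2 followed Mt1, at 94.4, 293, 221 and 106 CPM.

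Inside the subtype, variation was described across 389 cells with no test. Hmox1 was detected in 72.5% of cells, with a median of 270.0 CPM, a 90th percentile of 5200.0 CPM and a maximum of 24230.0 CPM. Mt1 was detected in 97.9% and ran from a median of 790.0 CPM to a maximum of 36750.0 CPM. Marco was detected in 64.8%, with a median of 410.0 CPM and a 90th percentile of 3090.0 CPM. Spp1 was detected in 61.4%. Chil3, a chitinase-like protein, was detected in 17.7%, Fabp4, a fatty acid chaperone, in 12.3%, and Cxcl2, a neutrophil-attracting chemokine, in 6.94%, with 39.8% of all its Mac III reads in 1 cell. Ccl6 was detected in nearly every cell and was also among the 20 most variable genes, with a median of 13790.0 CPM, a 90th percentile of 23856 CPM and a maximum of 39030.0 CPM. Among the most variable features was CT010467.1, which took 8.59% of female and 9.59% of male Mac III reads.

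**Figure D5:**
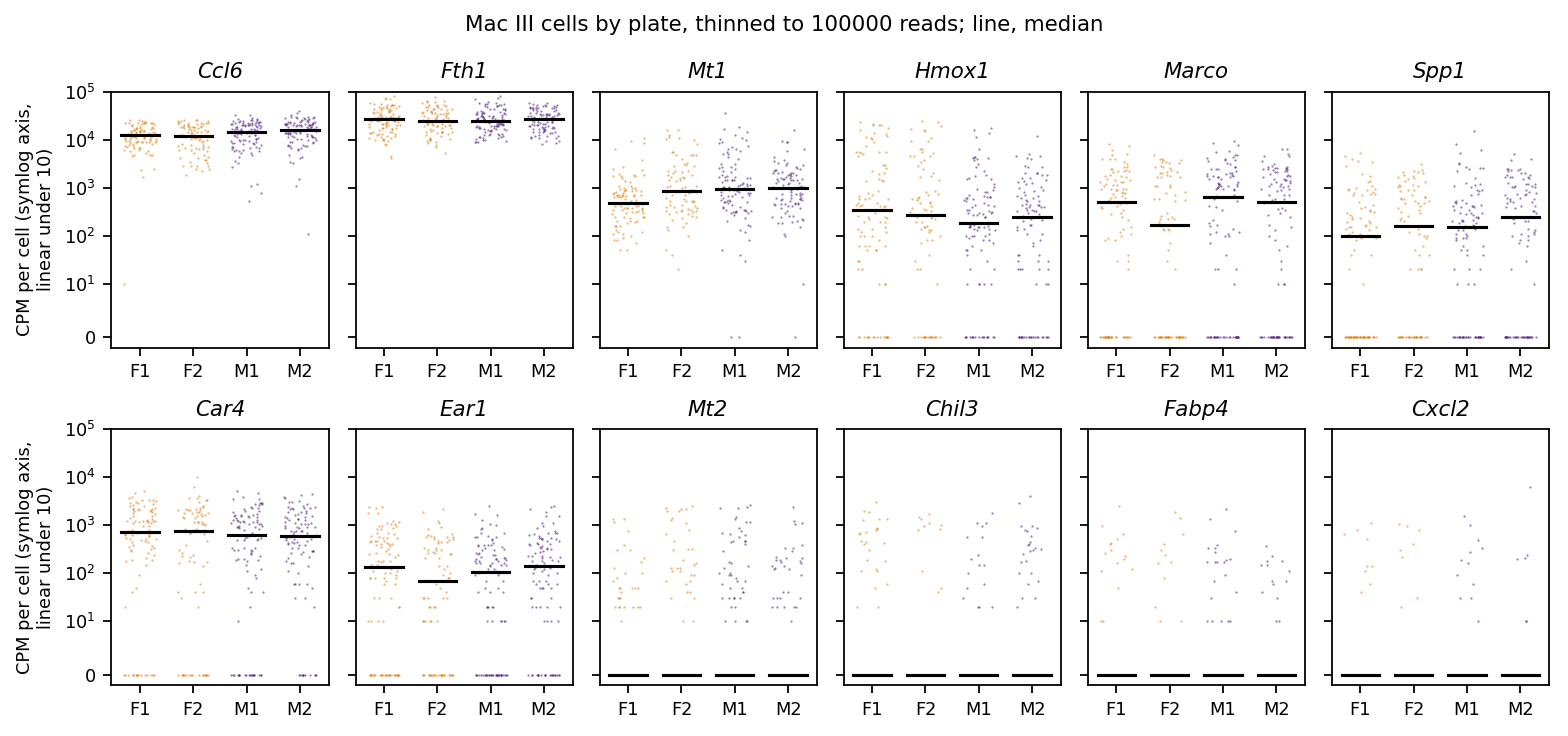
Level per cell (y axis, CPM, linear under 10 and logarithmic above) of 12 genes in Mac III cells on plates F1, F2, M1 and M2, with a line at the median. Ccl6 and Fth1 are high in nearly every cell of all 4 plates, while Chil3, Fabp4 and Cxcl2 are at 0 in most cells.

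Pairs of variable genes with a Spearman correlation of at least 0.4 in each animal were joined into groups, so that a member needs only 1 such partner. The widest held 43 genes, among them the mitosis and replication genes Top2a, Birc5, Cdk1 and Mcm2. A cell was called cycling when at least 4 of 10 cell cycle genes were detected, and 55 of 389 cells (14.1%) were, with 13.3% on F1, 13.3% on F2, 16% on M1 and 13.7% on M2. By the same list, against Mac IV and Mac V 0 of 10 genes were called (medians -0.57 and 3.26), and against Mac II 1, Ube2c, was higher (median 4.87, with 0.326% of all genes higher). By animal the cycling cells were 24 of 181 female and 31 of 208 male Mac III cells, and 8 of 63 and 14 of 79 Mac IV cells. In Mac II 0 of 47 cells were cycling and in Mac V 1 cell. Spp1 was detected in 87.3% of cycling cells and 57.2% of the others. A second group of 15 genes held ferritins (Fth1, Ftl1), lysosomal proteins (Ctsb, Ctsd, Ctss, Psap, Creg1), Hmox1, Prdx1, Fabp5, Cd9 and Lyz2. Spearman's correlation between Fth1 and Ftl1 was 0.81 in the female and 0.81 in the male cells, and between Hmox1 and Fth1 0.63 and 0.44. The median correlation of a gene with the others of the group ran lower, at 0.40 and 0.45 for Fth1, 0.15 and 0.27 for Cd9 and 0.20 and 0.08 for Hmox1. Ear1 and Ear2 formed a group with Tmsb4x, with a correlation of 0.44 and 0.48 between them. These values share the depth and the libraries of the cells and are given with no p.

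Markers of other lineages were low in the Mac III libraries. The summed level of epithelial markers was 14 and 28.7 CPM, of endothelial markers 2.03 and 3.14 CPM, of mesenchymal markers 2.83 and 4.14 CPM, of dendritic cell markers 3.28 and 3.13 CPM and of T and NK cell markers 0.401 and 0.446 CPM. B cell markers were at 5.68 and 0.178 CPM, eosinophil markers at 0.0287 and 0.301 CPM and erythroid and platelet markers at 1.87 and 1.44 CPM. The eosinophil sum covers only 2 of the 4 listed genes, since the rest were absent from the counts. Of the genes on the lists of other lineages, Krt18, Ly6g, Nkg7 and Mcpt8 had 0 reads. Others had reads, such as Sftpc, the highest epithelial marker, at 8.27 and 15.7 CPM. Mast cell and basophil markers were at 0.172 and 100.3 CPM, the male value from 1 cell. Neutrophil markers were at 92.6 and 108 CPM, of which S100a8 made 78.6 and 90.1 CPM and was detected in 40.4% of Mac III cells, against 53034 and 62009 CPM in neutrophils. Wfdc21 is also a neutrophil gene, and the part of neutrophil RNA in its Mac III level was not tested. In the comparison with Mac IV, S100a9 and Cxcr2 of the neutrophil list were higher. S100a9 was at only 1.62 and 3.18 CPM in Mac III, against 31900.5 and 38408 CPM in neutrophils, and Cxcr2 at 12.4 and 14.8 CPM in Mac III. The endothelial Pecam1, Cldn5 and Kdr, the smooth muscle gene Acta2 and the dendritic cell gene Mgl2 were lower than in Mac IV. Pecam1 and Acta2 were also lower than in Mac V, and no other tested gene of these lists was called in the 3 comparisons. Genes not tested could not be called. Of the mast cell and basophil list 0 of 6 genes were tested, and of the eosinophil list 1 of 4. The lists of T and NK cells (4 of 6), neutrophils (5 of 7), dendritic cells (5 of 7) and epithelium (6 of 8) were also tested in part. So were the mesenchymal and the erythroid and platelet lists (5 of 6 each). Without the 12 Mac III cells (7 female, 5 male) that held 2 or more markers of another lineage, a choice made after seeing the data, 349 genes were higher and 414 lower than in Mac IV, 533 and 567 than in Mac V, and 46 and 117 than in Mac II. No doublet caller was run.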

How the data were processed

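The deposited table holds raw read counts per gene and cell, with no molecular identifiers, made by the authors from plate-based Tn5 libraries. Reads were aligned with STAR 2.5.2b and counted with HTSeq 0.10, per the submitters' processing notes. Those notes name build GRCh38, a human build, while the genes carry mouse symbols, and the mouse build and annotation are not given in the sources used here. The members and the gene lists were chosen with earlier results of these data known.

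The table has 18072 genes (60 with no read) and 1183 cells, each matched to its labels by title, and 0 columns were identical. Reads were summed per animal and labelled class, since the animal is the replicate: the labels name 1 female and 1 male, so the p-values measure the spread between these 2 animals only. edgeR 4.0.16 in R 4.3.3 fitted the 8 libraries of Mac II to Mac V (TMM, filterByExpr, quasi-likelihood F test, Benjamini-Hochberg over 14400 genes). The script was run on simulated data whose spread was set below that of these libraries, so that run gives no error rate for them. A standard error is the absolute log2 fold change over the square root of F. Folds against 0 reads take 3 reads over the group. Shares were read after thinning each cell to 100000 reads with Python 3.11.15.

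Genes were named by a fixed rule: members of the lists, the 10 widest changes in each direction among called genes that average 50 CPM or more in the higher class and go the same way in both animals, the 25 widest margins over other classes, the 20 most variable genes, and the genes that separate the animals. Libraries of 1 animal pair across classes: female minus male log2 deviations over 3552 genes correlated at r = 0.169 between Mac III and Mac II, 0.348 with Mac IV and 0.263 with Mac V, and the pairing comes from the animal named in the labels. Alternatives were DESeq2 1.42.0, voom in limma 3.58.1, RLE size factors, no filter, run DC35 only, thinned cells, no cycling cells, all 15 classes in 1 fit, the animal as a block and each library left out. Promoter sequences and coordinates come from RefSeq. The values of 1 gene of the transcription factor list are not reported here.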

Additional observations from a re-analysis of the deposited data

Results flagged for a closer look

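In 6 instances a gene moved at least 1.5-fold one way in the female and the opposite way in the male. The difference between the animals was not tested in any of them. Mmp12, a macrophage elastase, stood at 46.4 CPM in female Mac III against 148 CPM in Mac IV and 281 CPM in Mac II, and at 45.9 CPM in male Mac III against 7.62 and 7.73 CPM. Clec4e, a lectin receptor of damaged cells, stood at 58.6 CPM against 315 CPM in Mac IV of the female and at 26.4 CPM against 7.57 CPM in the male. The other 3 are cell cycle genes compared with Mac IV. Top2a was at 86.7 CPM against 57.2 CPM in the female and 119 CPM against 211 CPM in the male. Birc5 was at 51.6 CPM against 27.6 CPM in the female and 62.7 CPM against 157 CPM in the male. Cenpf was at 38.3 CPM against 8.41 CPM in the female and 39.2 CPM against 66.8 CPM in the male.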

How the results depend on the processing

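No named call changed direction under any alternative, but the counts moved with the tool and the spread. Genes called against Mac IV, Mac V, Mac II and their mean numbered 754, 1086, 163 and 908. DESeq2 called 2295, 2936, 1189 and 1952, and voom 2603, 2424, 551 and 2700. Against Mac II the split was 47 higher and 116 lower with edgeR, 574 and 615 with DESeq2 and 304 and 247 with voom, and against the mean 555 and 353 with edgeR and 886 and 1066 with DESeq2. The fit over all 15 classes called 41, 69, 4 and 58, as 8 higher and 33 lower, 20 and 49, 0 and 4, and 35 and 23. Thinned cells gave 1212 against Mac IV. Leaving out 1 of the 4 compared libraries gave 225 to 441 against Mac IV, 360 to 879 against Mac V and 32 to 115 against Mac II, and leaving out 1 of the other 4 gave 845 to 940, 903 to 1317 and 140 to 168. Against the mean, leaving out 1 of the 8 gave 205 to 836. The cause of these shifts was not tested. With CT010467.1 left out of the totals, a choice made after seeing the data, 382 were higher and 395 lower than in Mac IV, 535 and 538 than in Mac V, and 47 and 110 than in Mac II.

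When the animal entered as a replicate block, the fits called 798, 1047, 189 and 751. The block ended 3 named calls against Mac IV (Cd163, H2-Aa and Wfdc21, adjusted p = 0.06097, 0.05629 and 0.05632), 5 against Mac V (Ccl2, Galnt9, Mcoln3, Smad3 and Spn, 0.07077, 0.0574, 0.06754, 0.06538 and 0.05042) and 3 against Mac II (Cx3cr1, Krt79 and Tnf, 0.08323, 0.07229 and 0.05658), and no other named call. Of the named calls, 45 of 91 against Mac IV, 57 of 104 against Mac V and 10 of 40 against Mac II passed with each of the 4 libraries left out in turn. Genes that separated the animals numbered 4 by the 3-fold rule, 19 at 2-fold, 2 at a minimum of 50 CPM and 15 without plate F1. Genes at least 2-fold above the other classes numbered 27, or 31 at 20 CPM, 21 at 100 CPM, 25 in run DC35 only and 28 in thinned cells. The number of animals, 2 in each class, limits the precision of each comparison.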
